A study of Mus musculus with 16 samples.

Results

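Simple repeats are runs of a short unit such as (CA)n or (CAG)n, and low-complexity tracts are stretches rich in 1 or a few bases, and both lie in exons, in introns and between genes throughout the mouse genome. The copies described here were selected on their read counts: they are the annotated Simple_repeat and Low_complexity copies that held at least 5 reads in 2 or more of 16 chromatin-associated RNA libraries, without those in a 15-kb stretch of chromosome 17. They number 190027 (165922 Simple_repeat and 24105 Low_complexity) of 1475909 annotated tract copies and of 4929385 repeat copies of all classes. Of these tracts, 167877 overlapped the span of an annotated gene and 22150 did not.

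The libraries came from E14TG2a cells, a mouse embryonic stem cell line, grown with 1000 U/ml LIF, 1 µM PD0325901 and 3 µM CHIR99021. RNA was taken from the chromatin fraction, which is rich in nascent and retained transcripts, and was depleted of ribosomal RNA and fragmented. The 8 groups of 2 libraries expressed ectopically an IDR-deleted form (del-cIDR in the titles, del-IDR in the genotype labels) or the full-length (FL) form of KDM4A, KDM4B, KDM6A (UTX) or KDM6B. An IDR is an intrinsically disordered region of a protein, and the labels do not give its position, the vector or the number of clones, or say whether replicates were separate cultures, so that p-values measure only the spread between these libraries. No group lacks an ectopic protein; the reference for each deletion is the full-length form of the same protein.

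KDM4A and KDM4B remove methyl groups from lysines of histone H3 that mark heterochromatin and transcribed gene bodies, and KDM6A and KDM6B act on the lysine that Polycomb complexes methylate. Tracts have no promoter of their own in general: a read on a tract is a piece of a longer transcript that runs through it, be it an mRNA exon, an intron not yet spliced out, read-through past a gene end or an intergenic transcript. In RNA such tracts are bound by sequence-selective proteins, for instance CUG runs by muscleblind proteins and CA runs by hnRNP L, and purine-rich runs in coding sequence encode stretches of charged residues.

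The most-read tracts show what this material is. The sequences below, on the transcript strand, belong to tracts that are named because they hold the most reads or change the most; they were read from GENCODE M21 transcripts at the matching place of the exon, with positions on GRCm39, and capitals mark every occurrence of the most frequent 3-base word of each tract.
Malat1 (noncoding RNA), chr19:5852651-5852692, minus strand: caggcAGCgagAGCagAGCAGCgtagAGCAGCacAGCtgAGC
Hsp90aa1 (coding), chr12:110660571-110660735, minus strand: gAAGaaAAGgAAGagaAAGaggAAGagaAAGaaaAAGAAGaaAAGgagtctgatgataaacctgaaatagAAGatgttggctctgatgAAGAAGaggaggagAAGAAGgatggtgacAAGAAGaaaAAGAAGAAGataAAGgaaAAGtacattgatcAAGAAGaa
Hsp90ab1 (coding), chr17:45881400-45881490, minus strand: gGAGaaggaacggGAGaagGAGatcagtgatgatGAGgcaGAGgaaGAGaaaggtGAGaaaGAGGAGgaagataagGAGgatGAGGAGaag
Hsp90ab1 (coding), chr17:45879850-45879883, minus strand: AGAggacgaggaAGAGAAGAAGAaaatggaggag
Rplp1 (coding), chr9:61820708-61820746, minus strand: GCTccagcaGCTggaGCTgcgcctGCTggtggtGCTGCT
Rpl5 (exon of a noncoding transcript of the gene), chr5:108055110-108055142, plus strand: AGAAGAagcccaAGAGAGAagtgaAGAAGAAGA
Olfr365 (coding), chr2:37091266-37091285, plus strand: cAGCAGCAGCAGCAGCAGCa
Purines made up 83.6% of the Hsp90aa1 tract and 89.0% and 94.1% of the Hsp90ab1 tracts, and the word AAG occurred 23 times in the Hsp90aa1 tract. Of the sequences shown, only the Olfr365 tract, with 6 occurrences of AGC, was an unbroken run of its unit. The Malat1 tract matched itself at 56.8% of bases when shifted by its best period. The Rpl5 label names the transcript its tract was read from, and the tract can be coding in other transcripts of the gene.

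**Figure D1:**
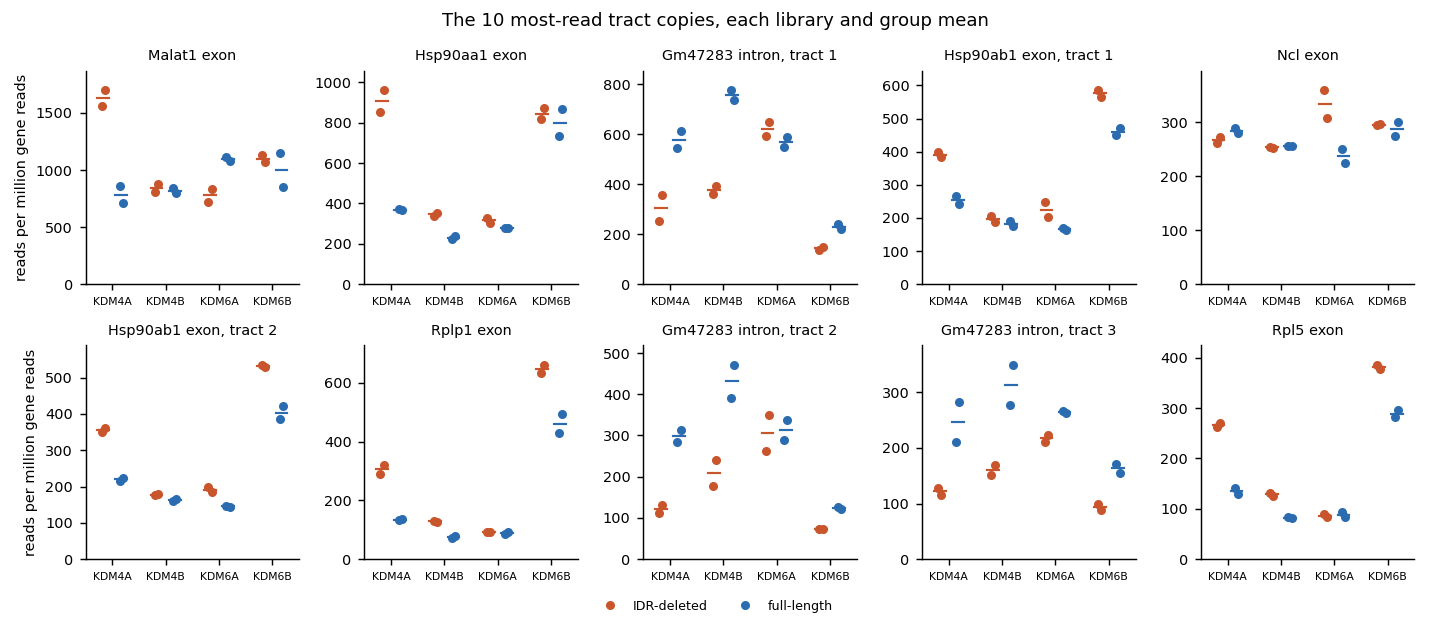
CPM, reads scaled to gene reads (vertical axis, from 0), in each library for the 10 tracts with the most reads; points are libraries, bars group means (n = 2), IDR-deleted left of full-length for each demethylase. Malat1 in cells with IDR-deleted KDM4A (1561 and 1700) lies above all other libraries, and the 3 Gm47283 intron tracts are lower with the IDR-deleted than with the full-length form of KDM4A, KDM4B and KDM6B.

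The 10 most-read tracts took 3.46% of all tract reads. The tract in Malat1, a nuclear long noncoding RNA that stays at chromatin, had 1561 and 1700 CPM (reads scaled to the gene reads of the library) with IDR-deleted KDM4A, against 859 and 711 CPM with full-length KDM4A. Both deleted libraries were above both full-length ones, a log2 fold change of 1.05 ± 0.13 (SE, adjusted p = 0.000156). In the other 3 demethylases the Malat1 tract did not pass, with log2 fold changes of 0.04 for KDM4B, -0.49 for KDM6A and 0.14 for KDM6B.

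The coding tract of Hsp90aa1, an inducible chaperone, had 855 and 961 CPM with IDR-deleted KDM4A, against 375 and 365 CPM with the full-length form (1.30 ± 0.07, adjusted p = 2.51e-24). It also rose with KDM4B (0.58 ± 0.07, adjusted p = 1.04e-08). The 2 tracts of Hsp90ab1, its constitutive relative, rose in 3 contrasts: by 0.62 and 0.69 for KDM4A, 0.43 and 0.39 for KDM6A and 0.32 and 0.40 for KDM6B. The tract of Ncl, which encodes nucleolin of the nucleolus, had 360 and 307 CPM with IDR-deleted KDM6A, against 251 and 224 CPM with full-length KDM6A (0.49 ± 0.08, adjusted p = 0.000157), and it passed in no other contrast. Of these calls, the Ncl rise and both Hsp90ab1 rises for KDM6A did not pass without IDR-deleted replicate 1 (adjusted p = 0.0919, 0.465 and 0.164) or full-length replicate 2 (0.194, 0.267 and 0.288), nor the second Hsp90ab1 rise without full-length replicate 1 (0.0858). For KDM6B the first Hsp90ab1 rise did not pass without IDR-deleted replicate 1 (0.0756) or full-length replicate 1 (0.0816).

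The tracts of 2 ribosomal protein genes rose in 3 contrasts. The Rplp1 tract had 290 and 321 CPM with IDR-deleted KDM4A, against 132 and 136 CPM with full-length KDM4A (1.19 ± 0.08, adjusted p = 3.22e-20). It rose by 0.79 ± 0.08 for KDM4B and by 0.49 ± 0.08 for KDM6B, and was at 0.01 ± 0.08 for KDM6A (not passed). The Rpl5 tract, a Low_complexity copy, rose by 0.98, 0.64 and 0.40 in the KDM4A, KDM4B and KDM6B contrasts.

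The 3 remaining most-read tracts lie close together in introns of Gm47283 on chromosome Y. The first (chrY:90816569-90816594) had 253 and 356 CPM with IDR-deleted KDM4A, against 544 and 614 CPM with full-length KDM4A, a log2 fold change of -0.93 ± 0.10 (adjusted p = 6.2e-08). All 3 fell in the KDM4A, KDM4B and KDM6B contrasts, by 0.68 to 1.30 on the log2 scale, and none passed for KDM6A. For KDM6B the fall of the tract at chrY:90815006-90815041 did not pass without any 1 of the 4 KDM6B libraries (adjusted p of 0.138 to 0.197), nor that of the first without IDR-deleted replicate 1 (0.0602) or full-length replicate 1 (0.0912). They share 1 host and 1 neighbourhood and are not separate replicates of a change.

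These values and all that follow are relative to total gene reads. Scaling by the ERCC RNAs in the gene table, which took 0.582% to 1.55% of gene reads, put the median of all genes at -0.70 for KDM4A, -0.18 for KDM4B, -0.21 for KDM6A and -0.38 for KDM6B (log2), against -0.05, 0.01, 0.00 and 0.00 with the scaling used here. On that scale the first Hsp90ab1 tract was at -0.03 for KDM4A and -0.05 for KDM6B, and the rises of Malat1 (0.40, adjusted p = 0.0939), of both Hsp90ab1 tracts for KDM6A, of the second for KDM4A and KDM6B, of Ncl for KDM6A (0.27) and of Rplp1 and Rpl5 for KDM6B (0.11 and 0.02) did not pass, while those of Hsp90aa1, Rplp1 and Rpl5 for KDM4A and KDM4B did. In bulk RNA a lower level in all cells and fewer cells with the transcript cannot be told apart.

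Library depth was 32739117 to 54890756 reads on genes and 3034648 to 6081954 reads on the tracts. All 10 markers of naive embryonic stem cells were at 1 CPM or more in every library, with sums of 2083 to 3133 CPM. So were all 5 neural markers, with sums of 82.2 to 159 CPM, 2 of the 7 fibroblast or feeder markers and 2 of the 5 primitive endoderm markers. The 7 fibroblast or feeder markers summed to 3.49 to 8.15 CPM and the 5 primitive endoderm markers to 7.39 to 30.8 CPM. Reads on Kdm6a stood at 415 to 441 CPM in the 4 KDM6A libraries and at 95.7 to 156 CPM in the other 12. Kdm4a, Kdm4b and Kdm6b showed no such step between groups, so that the gene counts check the KDM6A label only, and not the deletion: Kdm4a was at 300 and 292 CPM with IDR-deleted and 217 and 206 CPM with full-length KDM4A, but at 253 and 272 CPM with full-length KDM6B.

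Outside genes, tracts were lower with the IDR of KDM4A deleted. Summed Simple_repeat reads outside gene spans were 2798 and 2868 CPM with IDR-deleted KDM4A, against 4712 and 4727 CPM with full-length KDM4A. For KDM4B they were 4451 and 4648 CPM with the IDR-deleted form, against 5486 and 5573 CPM with the full-length form. Neither pair of groups overlapped. The log2 fold changes were -0.74 ± 0.04 for KDM4A (adjusted p = 9.92e-09) and -0.28 ± 0.04 for KDM4B (adjusted p = 0.000173), in edgeR's quasi-likelihood test over 113 sums of a repeat class in a place with Benjamini-Hochberg adjustment, where 77.9% of sums passed for KDM4A (1.77% up, 76.1% down) and 50.4% for KDM4B (all down). Without the repeat copies in the 150 kb of chromosome 17 after the excluded stretch, the median of the 51 other repeat classes outside genes was -1.03 for KDM4A and -0.23 for KDM4B. On that set Simple_repeat was at -0.72 for KDM4A, and 38 of the 51 fell further.

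With KDM6B the same sum was 2890 and 2858 CPM for the IDR-deleted form, against 3488 and 3072 CPM for the full-length form (-0.19 ± 0.04, adjusted p = 0.0026, and 0.0538 when only these 4 libraries were fitted; -0.096 without full-length replicate 1 and -0.28 without full-length replicate 2, both passing; 53.1% of sums passed, 2.65% up and 50.4% down). With KDM6A it was 5357 and 5544 CPM for the IDR-deleted form, against 5057 and 5033 CPM for the full-length form. That difference of 0.11 ± 0.04 did not pass (adjusted p = 0.103; 21.2% of sums passed, 20.4% up and 0.885% down), although the groups did not overlap, and it was -0.10 with ERCC scaling.

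Low_complexity reads outside genes fell by 0.64 ± 0.19 on the log2 scale for KDM4A (adjusted p = 0.0134; 0.0978 without IDR-deleted replicate 1 and 0.0554 without full-length replicate 2), and differences of -0.47 for KDM4B, 0.15 for KDM6A and -0.31 for KDM6B did not pass. On chromosome 17, in the 150 kb after the excluded stretch, reads of single copies swung between libraries of 1 group: the Low_complexity copy at chr17:40187168-40187402 held 1 and 4770 reads in the libraries with IDR-deleted KDM4B, against 9803 and 1478 reads with full-length KDM4B. The members there number 6. Without them the sum was 426 and 452 CPM with IDR-deleted KDM4A, against 754 and 783 CPM with full-length KDM4A, and all 4 contrasts passed, at -0.81, -0.37, 0.15 and -0.17 for KDM4A, KDM4B, KDM6A and KDM6B (SE 0.04 each). Without them Simple_repeat outside genes was at -0.72, -0.29, 0.11 and -0.14 (SE 0.03 each), and the KDM6A difference passed (adjusted p = 0.01). This exclusion was chosen after seeing the data.

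The stretch that the selection leaves out matters more. It holds 3 tract copies, of which that at chr17:40159258-40159315 overlaps a gene span and the other two do not, and the most-read of them, at chr17:40155501-40155535 outside gene spans, held 4140593 reads over the 16 libraries and 4317 to 11102 CPM per library. With the stretch kept, Simple_repeat outside genes was 0.46 ± 0.04 higher with IDR-deleted KDM4A and -0.05 ± 0.04 for KDM4B. The falls given here hold for tracts without that stretch.

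Inside genes the sums barely moved for KDM4A. Simple_repeat reads were 83981 and 84368 CPM with IDR-deleted KDM4A, against 86121 and 84408 CPM with full-length KDM4A (-0.02 ± 0.02, adjusted p = 0.389), and Low_complexity was at -0.01 ± 0.02. For KDM4B both inside sums fell, by 0.12 ± 0.02 and 0.13 ± 0.02 (adjusted p = 0.000113 and 0.000112). For KDM6B they fell by 0.16 ± 0.02 and 0.12 ± 0.02 (adjusted p = 7.53e-06 and 0.000145), with 72300 and 71814 CPM of Simple_repeat reads in the IDR-deleted libraries, against 81216 and 79727 CPM in the full-length ones. For KDM6A they were 0.05 ± 0.02 (adjusted p = 0.0691) and 0.06 ± 0.02 higher (adjusted p = 0.0453), the second no longer passing without any 1 of the 4 KDM6A libraries, and both were below 0 with ERCC scaling.

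**Figure D2:**
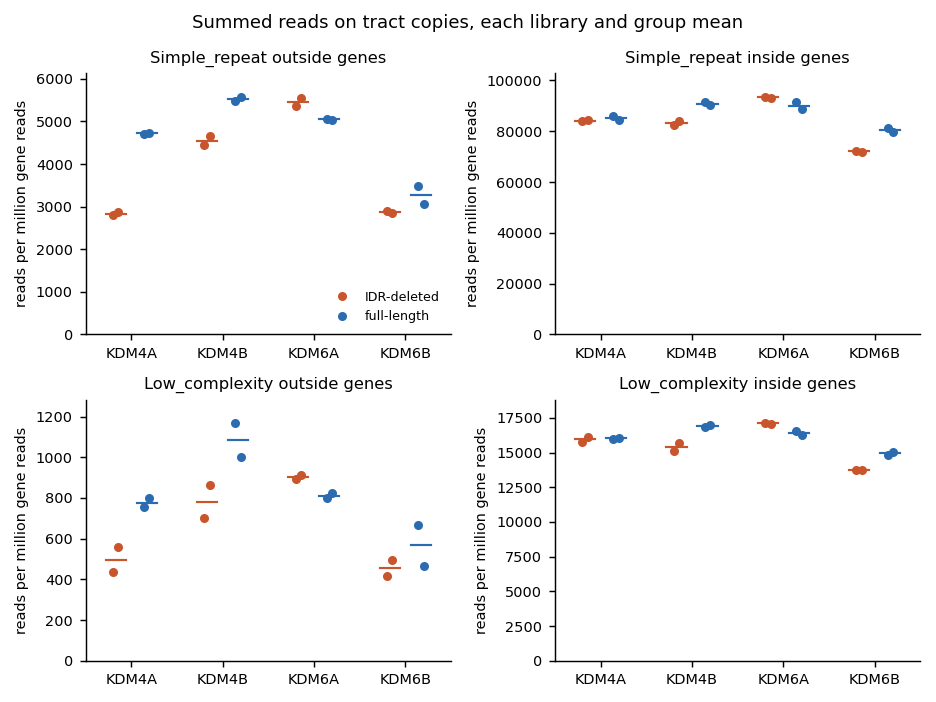
Summed reads on Simple_repeat and Low_complexity tracts outside and inside genes, in CPM (vertical axis, from 0); points are libraries, bars group means (n = 2), IDR-deleted left of full-length. For KDM4A the 2 forms separate outside genes (2798 and 2868 against 4712 and 4727 for Simple_repeat) and lie close together inside.

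The deletion effects differed within each family in 3 of the 4 sums. The KDM4A effect on Simple_repeat outside genes was lower than the KDM4B effect by 0.45 ± 0.06 on the log2 scale (adjusted p = 7.78e-05), while inside genes it was 0.11 ± 0.03 higher (adjusted p = 0.00476) relative to gene reads and 0.36 lower (-0.36) with ERCC scaling. The KDM6A effect exceeded that of KDM6B by 0.30 ± 0.06 outside (adjusted p = 0.00112) and 0.21 ± 0.03 inside (adjusted p = 1.66e-05). For Low_complexity the differences inside passed as well (0.13 ± 0.03 and 0.18 ± 0.03), and those outside did not, at -0.17 ± 0.27 for KDM4A minus KDM4B (adjusted p = 0.642) and 0.46 ± 0.27 for KDM6A minus KDM6B (adjusted p = 0.186); both passed without the 6 swinging copies (-0.44 ± 0.06 and 0.32 ± 0.06). Over the 8 groups, Simple_repeat outside genes was lowest with IDR-deleted KDM6B (2831 CPM) and IDR-deleted KDM4A (2832 CPM), which overlapped, and highest with IDR-deleted KDM6A (5425 CPM) and full-length KDM4B (5520 CPM), which overlapped too, all without the 6 swinging copies. Full-length KDM6B, at 3119 CPM, was the lowest of the full-length groups. All 4 sums differed over the 8 groups (adjusted p of 0.00217 or less).

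Splitting genes into exons and introns showed that the flat sum inside genes for KDM4A held opposite changes. Simple_repeat reads in exons were 43557 and 43090 CPM with IDR-deleted KDM4A, against 36012 and 34243 CPM with full-length KDM4A (0.30 ± 0.03, adjusted p = 5.5e-07). In introns they were 40422 and 41278 CPM with IDR-deleted KDM4A, against 49824 and 50164 CPM with full-length KDM4A (-0.29 ± 0.03, adjusted p = 1.89e-07). The exon rise is relative to gene reads and was -0.35 with ERCC scaling, while the difference between introns and exons does not depend on scaling: tested with a term for each library, it was -0.59 ± 0.06 for Simple_repeat (adjusted p = 2.07e-05) and -0.58 ± 0.05 for Low_complexity (adjusted p = 4.46e-06), with a median of -0.18 over 53 repeat classes, of which 32 passed downward. These finer sums and place tests were added after seeing the data. They leave out the repeat copies in the 150 kb of chromosome 17 after the excluded stretch, the 6 swinging tracts among them.

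Relative to gene reads, KDM6B showed the intron change without the exon one. Simple_repeat reads in introns were 29316 and 28839 CPM with IDR-deleted KDM6B, against 40212 and 37587 CPM with full-length KDM6B (-0.42 ± 0.03, adjusted p = 9.39e-09). In exons they were 42982 and 42669 CPM with IDR-deleted and 41003 and 41961 CPM with full-length KDM6B (0.05 ± 0.03, not passed). With ERCC scaling both fell and passed, exons at -0.33 and introns at -0.80. The intron-minus-exon difference was -0.47 ± 0.06 (adjusted p = 7.41e-05); the median over the 53 classes was -0.32, and 36 of them passed downward. For KDM4B it was -0.16 ± 0.06 (adjusted p = 0.0465, and 0.0542 without the read minimum; class median -0.09), and for KDM6A 0.01 ± 0.06 (not passed).

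With distance from genes the KDM4 effects on tracts were larger, in sums that leave out the 6 swinging copies. For KDM4A the Simple_repeat sums changed by -0.68 ± 0.03 up to 5 kb from a gene, -0.74 ± 0.03 at 5 to 50 kb and -0.94 ± 0.04 beyond 50 kb. For KDM4B they changed by -0.18, -0.35 and -0.79 in the same order, and Low_complexity sums fell by 1.505 (KDM4A) and 0.99 (KDM4B) beyond 50 kb. Without the read minimum the Low_complexity changes beyond 50 kb were smaller, at -1.28 ± 0.11 (KDM4A) and -0.90 ± 0.11 (KDM4B), both passing. Those of Simple_repeat were then -0.90 ± 0.07 and -0.76 ± 0.07. Beyond 50 kb, Simple_repeat reads were 181 and 191 CPM with IDR-deleted KDM4A, against 356 and 358 CPM with full-length KDM4A. KDM6B ran the other way, from -0.16 near genes to 0.09 ± 0.04 beyond 50 kb (not passed), and KDM6A rose by 0.11, 0.10 and 0.23, all 3 passing. With ERCC scaling none of these 3 passed, at -0.11, -0.12 and 0.01 (adjusted p = 0.176, 0.138 and 0.947), and without the read minimum none passed either (adjusted p = 0.0627, 0.244 and 0.179). The trend with distance was not itself tested. Also without the 6 swinging copies, the effect outside genes minus that inside passed for KDM4A (-0.71 ± 0.02 for Simple_repeat and -0.80 ± 0.03 for Low_complexity) and for KDM4B (-0.16 and -0.24), and did not for KDM6A and KDM6B. Over 52 repeat classes the median of this difference was -0.68 for KDM4A, with 39 classes passing downward, and -0.10 for KDM4B, with 15. For KDM6B the class median was 0.21, with 20 classes passing upward, against 0.02 for Simple_repeat and -0.05 for Low_complexity.

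**Figure D3:**
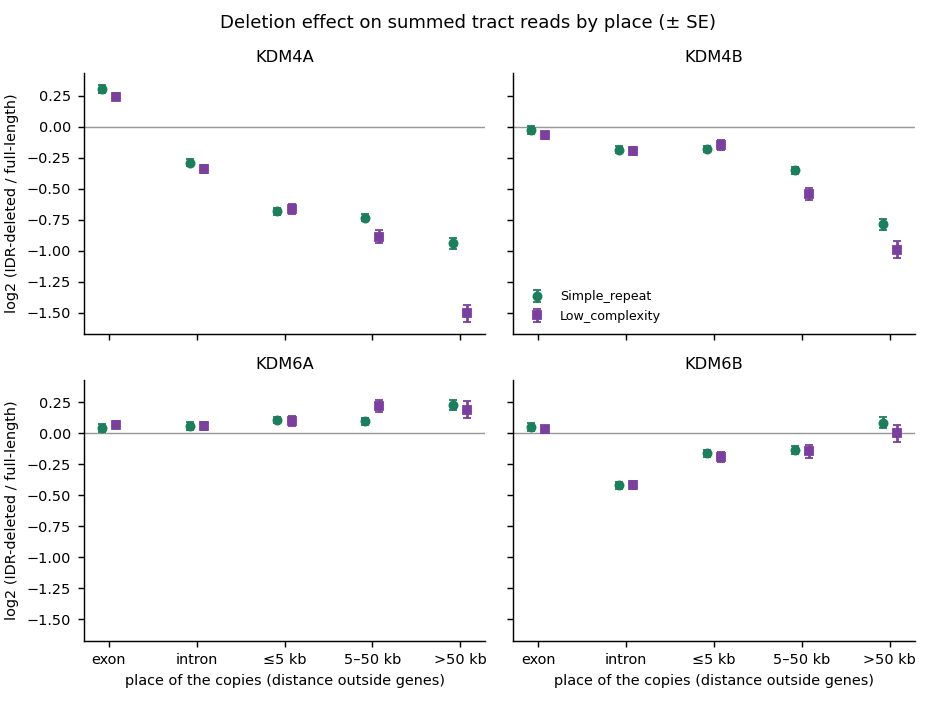
Log2 fold change (IDR-deleted over full-length, ± SE from the fit of 16 libraries) of summed tract reads in exons, introns and 3 bins of distance outside genes, in 1 panel per demethylase, without the 6 swinging copies of chromosome 17. For KDM4A the Simple_repeat values descend from 0.30 in exons to -0.94 beyond 50 kb, and for KDM6B the lowest value, -0.42, is in introns.

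Copy by copy, 119184 of the 190027 tracts had enough reads to be tested, together with the other repeats (728423 copies). Inside genes, 4207 tracts rose and 11195 fell for KDM4A of 109221 tested (14.1%), where 19.3% of all repeat copies passed, 3.21% up and 16.1% down. Outside genes, 136 rose and 2062 fell of 9963 (22.1%), with a median log2 fold change of -1.10 against -0.32 inside and -0.45 over all copies. For KDM4B, 2.63% of tracts inside and 5.51% outside passed, where 4.73% of all copies did, 1.05% up and 3.68% down. For KDM6B, 2.80% inside (180 up, 2882 down) and 1.23% outside (32 up, 91 down) passed, where 4.31% of all copies did, 0.334% up and 3.97% down. For KDM6A, 84 rose and 43 fell inside and 14 rose and 3 fell outside, where 0.151% of all copies passed, 0.11% up and 0.0415% down. Leaving out any 1 library of the contrast lowered the count inside genes for KDM4A to between 9162 and 10199 and outside to between 1199 and 1521. For KDM4B the counts became 1138 to 1397 inside and 233 to 263 outside, for KDM6A 32 to 51 and 2 to 5, and for KDM6B 1034 to 2018 and 45 to 66.

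In the KDM4A, KDM4B and KDM6B contrasts the share that passed was lower for tracts than for other repeats, both inside and outside genes. For KDM6A it was lower outside (0.171% against 0.324%), nearly equal inside (0.116% against 0.12%) and higher in exons (0.378% against 0.346%). For KDM6B other repeats passed at 5.1% inside and 2.49% outside genes. Other repeats outside genes passed at 29.4% for KDM4A and 9.52% for KDM4B, with medians of -1.08 and -0.28. They hold more reads per copy, with medians of 188 for other repeats and 147 for tracts over the 16 libraries outside genes, and the part of read depth in the shares was not tested. In exons the medians lay apart for KDM4A: 0.03 for 19063 tracts (2149 up, 1633 down) and -0.31 for 39920 other repeats (1939 up, 6129 down). The difference of deletion effects between KDM4A and KDM4B passed for 722 tracts upward and 1743 downward inside and 29 upward and 470 downward outside, where 3.83% of all copies passed (0.501% up, 3.33% down), and that between KDM6A and KDM6B for 1324 upward and 150 downward inside and 63 upward and 16 downward outside, where 2.18% did (2.02% up, 0.155% down).

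The KDM4A and KDM4B contrasts use separate libraries, but the calls of all contrasts come from the same fit. That fit shares each copy's dispersion between contrasts, so the calls are not independent. Copies with many reads or little spread can pass more easily in both contrasts. The shares of all tested tracts given for comparison are not matched for read depth or spread. The part of these in the overlaps was not tested. Of 422 tracts outside genes that fell for KDM4B, 309 also fell for KDM4A, which is 73.2% of the KDM4B falls and 15.0% of the KDM4A falls; 20.7% of all tested tracts outside genes fell for KDM4A. Inside genes 1252 tracts fell in both, 61.1% of the KDM4B falls and 11.2% of the KDM4A falls, where 10.2% of all tested tracts inside genes fell for KDM4A. The overlap was not confined to the KDM4 pair: of the tracts that fell for KDM6B, 52.7% outside genes (48 of 91) and 32.5% inside (938 of 2882) also fell for KDM4A, which is 2.33% and 8.38% of the KDM4A falls.

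**Figure D4:**
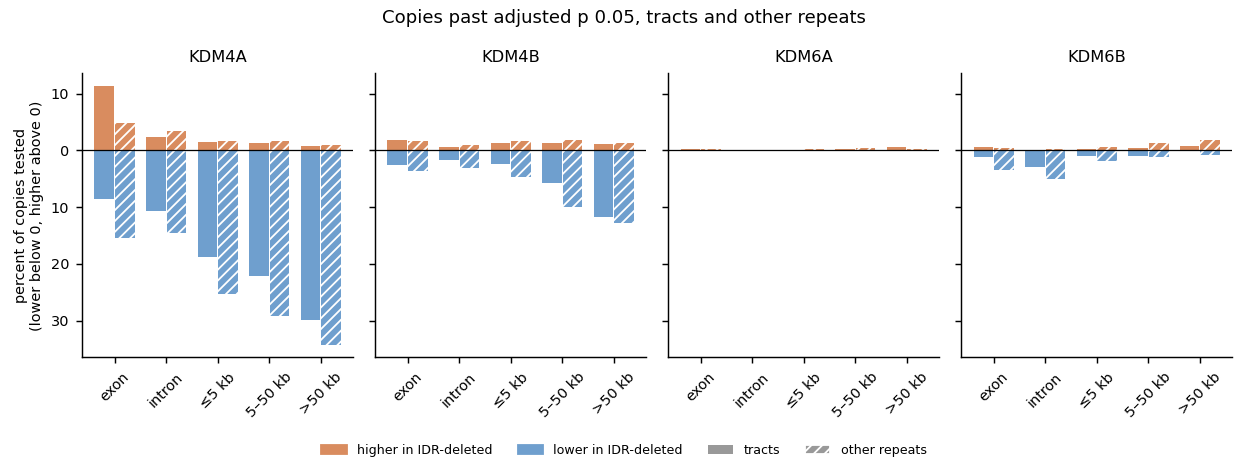
Percent of tested copies that were higher (above 0) or lower (below 0) in IDR-deleted cells at adjusted p under 0.05, for tracts (plain) and other repeats (hatched) by place, in 1 panel per demethylase. The share of tracts lower for KDM4A grows from exons to copies beyond 50 kb, and stays below that of other repeats in each place.

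Members are short, with a median length of 39 bases inside and 42 bases outside genes. Tracts outside genes of 80 bases or more had a median log2 fold change of -0.70 for KDM4A (1633 tested), against -1.17 under 40 bases (4595 tested); inside genes the medians were -0.23 and -0.33. A repeat of another class lay within 100 bases of 26.9% of tracts inside and 30.3% outside, where it did for 51.5% of all tract copies. Beside LINE/L1 copies, tracts inside genes had medians of -0.52 for KDM4A and -0.53 for KDM6B (2032 tested), and with no other repeat nearby -0.31 and -0.35 (85320 tested). Beside the other 5 neighbour classes examined, the KDM4A medians were -0.32 for SINE/Alu, -0.32 for SINE/B2, -0.33 for SINE/B4, -0.38 for LTR/ERVK and -0.41 for LTR/ERVL-MaLR, and the KDM6B medians lay between -0.44 and -0.37. These inside sets differ in depth, with medians of 161 reads beside LINE/L1 and 240 with no other repeat nearby. Outside genes the medians beside LINE/L1 were -1.19 for KDM4A and -0.08 for KDM6B (317 tested). With no other repeat nearby they were -1.13 and -0.13 (7243 tested).

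The reads decided which copies are members, and the values at the limit are as follows. In 16625 members the second-highest library stood at exactly 5 reads, with a median of 32 reads over all libraries, and 35671 tract copies just missed with 4, at a median of 22. In 2313 members 5 reads were reached only in libraries of 1 group, and in 47681 they were reached in all 16. Members made up 24.1% of tract copies inside genes and 2.85% of those outside, and they held 96.8% of tract reads. Exons held 12.9% of the members and 43.0% of their reads.

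The largest changes per contrast and place were taken among tracts whose groups did not overlap. For KDM4A, the tract at chr9:8600829-8600877 in an intron of Trpc6, a cation channel gene, had 0 CPM in both IDR-deleted libraries, against 1.91 and 0.73 CPM with full-length KDM4A, which is at least 27.1-fold lower when 3 reads over the group are taken as the floor; Trpc6 itself fell by 2.28 ± 0.15. The intronic tract of Hpgds, a prostaglandin D synthase gene, at chr6:65108340-65108382 held 1 read with the IDR-deleted and 119 reads with the full-length form, a ratio of 81.9 (95% interval 14.4 to 3260, counting error only), and Hpgds fell by 2.59 ± 0.09. The largest rises inside genes were in an intron of Olfr57 (1.75 and 2.36 CPM in IDR-deleted libraries against 0.0932 and 0.243 CPM in full-length ones, 3.56 ± 0.47), and in an intron of Ppp6r3, a phosphatase subunit gene (4.40 and 12.3 CPM against 0.559 and 0.8499 CPM, 3.54 ± 0.76). Olfr57 rose too (2.40 ± 0.15), while Ppp6r3 moved by only 0.23 ± 0.03. The rise of the Ppp6r3 tract did not pass without full-length replicate 1 (adjusted p = 0.0851) or replicate 2 (0.067).

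Outside genes, a Low_complexity tract 251 bases from Syne3, which encodes a nuclear envelope protein, had 1.78 and 2.23 CPM with IDR-deleted KDM4A, against 0.210 and 0.263 CPM with full-length KDM4A (3.06 ± 0.44), and Syne3 rose by 2.17 ± 0.09. A Simple_repeat 12633 bases from Vwa5b1 rose by 3.53 ± 0.69. The largest falls were 79764 bases from Gm2140 (2 reads in IDR-deleted and 169 reads in full-length libraries, a ratio of 58.1, 95% interval 15.9 to 484) and 21834 bases from Gm45680, a long noncoding RNA (2 and 106 reads, a ratio of 36.5, interval 9.85 to 305).

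For KDM4B, 2 tracts of the olfactory receptor gene Olfr365 held no read in either IDR-deleted library. The coding AGC run shown above had 0.953 and 1.95 CPM with full-length KDM4B, at least 46.4-fold lower with the deletion, and the tract at chr2:37095341-37095573 in its 3' UTR had 2.20 and 2.34 CPM, at least 73.5-fold lower. Olfr365, whose gene count can include the reads on these exonic tracts, fell by 5.14 ± 0.22. Rises were in introns of Sash1 (1.35 and 0.843 CPM in IDR-deleted libraries against 0.293 and 0.0789 CPM in full-length ones) and of Slc13a5, a citrate transporter gene (0.822 and 1.205 CPM against 0.122 and 0.237 CPM), whose log2 fold changes were 2.52 ± 0.64 and 2.49 ± 0.50. The Sash1 rise did not pass without IDR-deleted replicate 1 (adjusted p = 0.205) or full-length replicate 2 (0.225), nor the Slc13a5 rise without full-length replicate 1 (0.0507). Outside genes the largest falls lay 32843 bases from Parp11 (2 reads in IDR-deleted and 97 in full-length libraries, a ratio of 59.7, interval 16.1 to 500.2) and 1422 bases from Gm48023 (-5.18 ± 0.62), and the rises lay near ENSMUSG00000120065 (2.23 ± 0.46, and adjusted p = 0.0685 without IDR-deleted replicate 1) and ENSMUSG00000118478 (2.19 ± 0.30). The ratio near Parp11 stood beside a Parp11 gene change of -0.07 ± 0.10, which did not pass.

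For KDM6B the largest rises inside genes were an intron tract of 1700108F19Rik (2.83 ± 0.47) and a coding tract of Tspoap1 (2.09 and 1.88 CPM in IDR-deleted libraries against 0.520 and 0.519 CPM in full-length ones, 1.93 ± 0.34). The largest falls were in an intron of Sema6a, a semaphorin gene (-2.54 ± 0.49), and in a tract within the spans of both Map3k3 and Gm11672 (-2.40 ± 0.40). The latter was read from an exon of a noncoding transcript on the minus strand, and the Map3k3 gene was at -0.095 ± 0.054 (not passed). Without full-length replicate 1 the Sema6a tract did not pass (adjusted p = 0.0817). Outside genes, 2 tracts 14964 and 16578 bases from Slco1c1, a thyroid hormone transporter gene, rose by 2.53 ± 0.28 and 1.96 ± 0.30, and Slco1c1 rose by 2.98 ± 0.09. The falls lay 5 bases from March7 (-1.62 ± 0.37) and 5043 bases from Gm6420 (-1.44 ± 0.38). Both falls depended on single libraries: neither passed without full-length replicate 1 (adjusted p = 0.214 for March7 and 0.109 for Gm6420) or IDR-deleted replicate 2 (0.195 and 0.146), nor did that near Gm6420 without IDR-deleted replicate 1 (0.069).

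In the KDM6A contrast, leaving out any 1 KDM6A library ended the call of most of the tracts named, with the most-read ones counted among those named. Inside genes, tracts in introns of Rbm19 (1.59 and 1.07 CPM in IDR-deleted libraries against 0.361 and 0.171 CPM in full-length ones, 2.26 ± 0.48) and Tenm4 (1.84 ± 0.44) rose, and a 5' UTR tract of Triobp (-2.03 ± 0.40) and an intron tract of Tspan9 (-1.64 ± 0.38) fell. Outside genes, tracts 51536 bases from Gm49534 (1.75 ± 0.41) and near ENSMUSG00002075932 (1.42 ± 0.30) rose, and tracts 8459 bases from Gm21860 on chromosome Y (-2.50 ± 0.43) and near ENSMUSG00000121143 (-1.89 ± 0.38) fell. The calls in Tenm4 and Tspan9 and near Gm49534 and ENSMUSG00002075932 each ended whichever KDM6A library was left out. With ERCC scaling the rises in Tenm4 (adjusted p = 0.111), near Gm49534 (0.0998) and near ENSMUSG00002075932 (0.0857) did not pass.

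Exonic tracts were placed in their transcripts for 21362 of 24450. Coding sequence held 3860, 3' UTRs 7294, 5' UTRs 2443 and noncoding transcripts 7614. Each tract was placed by the first exon that held it, and coding transcripts were preferred only among those that share that exon. The noncoding group can thus hold tracts that are coding or in UTRs in other transcripts of the gene. For KDM4A, of 2000 tested 5' UTR tracts 395 rose (19.8%) and 59 fell (2.95%), with a median log2 fold change of 0.47, and of 3435 coding tracts 839 rose (24.4%) and 168 fell (4.89%), with a median of 0.32. The 5657 tested 3' UTR tracts went the other way, with 4.01% up, 12.5% down and a median of -0.29. Over all exonic tracts 11.3% rose and 8.57% fell, and over all repeat copies 3.21% rose and 16.1% fell. For KDM6B, 53 coding tracts rose (1.54%) and 9 fell (0.262%; median 0.08), 19 3' UTR tracts rose (0.336%) and 70 fell (1.24%; -0.09), and 16 tracts of noncoding transcripts rose (0.286%) and 117 fell (2.09%; -0.21). Over all exonic tracts 0.593% rose and 1.25% fell for KDM6B, and over all repeat copies 0.334% rose and 3.97% fell. KDM4B and KDM6A medians lay between -0.11 and 0.10 in these 4 places. Tested tracts held medians of 1092 reads in coding sequence, 456 in 5' UTRs, 328 in 3' UTRs and 305 in noncoding transcripts. The part of read depth in the shares was not tested. The rises are relative to gene reads: for KDM4A the exonic Simple_repeat sum was at 0.30 on this scale and at -0.35 with ERCC scaling.

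**Figure D5:**
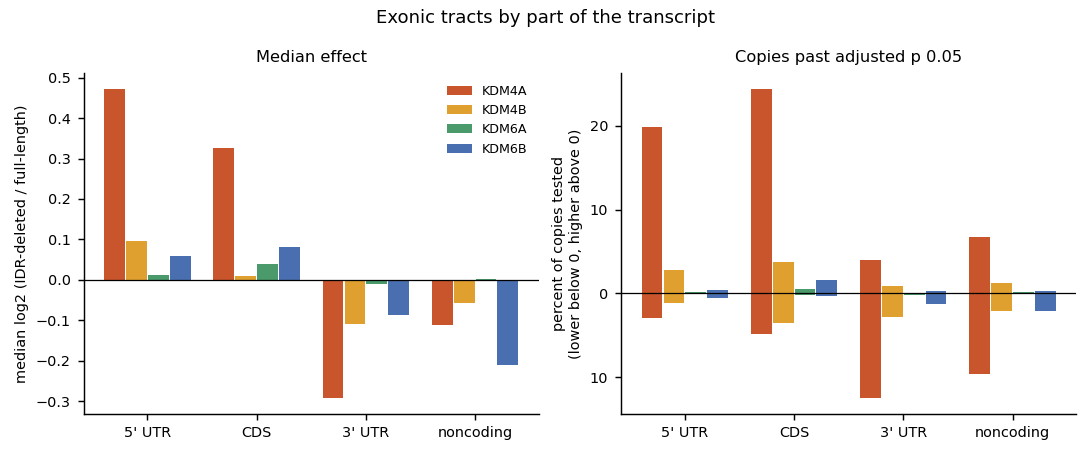
Exonic tracts by part of the transcript: the left panel gives the median log2 fold change (IDR-deleted over full-length), and the right panel the percent of tested tracts that were higher (above 0) or lower (below 0) at adjusted p under 0.05; colours are the 4 demethylases. For KDM4A the medians are 0.47 in 5' UTRs, 0.32 in coding sequence and -0.29 in 3' UTRs.

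The repeated units were spread unevenly over the transcript. Of the 6 units with the most reads, written as the first in the alphabet of their rotations and reverse complements, CCG had 50.7% of its 460 tracts in 5' UTRs, and AAG, AGC and AGG had 57.1%, 61.5% and 56.7% in coding sequence. A (2830 tracts) and AC (2020 tracts) had 59.0% and 50.6% in 3' UTRs. KDM4A medians were 0.44 for CCG, 0.31 for AAG, 0.28 for AGC, 0.22 for AGG, -0.20 for AC and -0.27 for A. Within coding sequence the medians of AGC, AGG, CCG and AAG tracts were 0.33, 0.23, 0.39 and 0.38, beside 0.32 for all coding tracts, and within 3' UTRs those of A and AC were -0.31 and -0.25, beside -0.29. Other units lay further from their place. Within 3' UTRs AGC and AGG were at -0.04 and -0.09 (57 and 52 tested). In 5' UTRs A was at -0.06 (103 tested), CCG at 0.49 and AGG at 0.36, beside 0.47. In noncoding transcripts AGC, CCG, AAG and AGG were at 0.28, 0.42, 0.20 and 0.10, and A and AC at -0.25 and -0.19, beside -0.11. The parts of unit and place were not tested. No unit was assigned to 9290 of the placed tracts.

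Changes of tracts were set beside those of the genes that hold them. Across 15840 exonic tracts with 1 host, Pearson's r between the log2 fold change of tract and host was 0.60 for KDM4A, 0.61 for KDM4B, 0.40 for KDM6A and 0.41 for KDM6B; these are descriptions across copies that share libraries, and in exons also reads. Across 85340 intronic tracts the values were 0.47, 0.51, 0.28 and 0.22. For KDM4A the median intronic tract changed by -0.39 where the median host changed by 0.04, and for KDM6B by -0.46 and -0.04. Of 9025 intronic tracts that fell for KDM4A, the host gene fell for 6282 and rose for 1290. Of 2540 that fell for KDM6B, it fell for 1311 and rose for 83. Over all 31057 tested genes, 25.9% fell and 24.6% rose for KDM4A, and 10.7% fell and 9.89% rose for KDM6B. The shares over the hosts of all intronic tracts are not given here.

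Genes for proteins that bind tracts in RNA or resolve R-loops and G-quadruplexes, 43 in all, were all tested. For KDM4A, 20 rose and 10 fell relative to gene reads, with a median of 0.06 (-0.05 over all genes, of which 50.5% passed, 24.6% up and 25.9% down); with ERCC scaling 1 rose and 39 fell. Taf15, which encodes a nuclear RNA-binding protein, had 242 and 259 CPM with IDR-deleted KDM4A, against 132 and 136 CPM with full-length KDM4A (0.90 ± 0.05, adjusted p = 4.33e-19). Mbnl1, a muscleblind protein that binds CUG runs, had 33.6 and 32.1 CPM with IDR-deleted KDM4A, against 58.8 and 63.0 CPM with full-length KDM4A (-0.89 ± 0.06, adjusted p = 2e-16), whereas its relative Mbnl2 rose by 0.50 ± 0.03 relative to gene reads and was at -0.16 with ERCC scaling. Top3b, a topoisomerase that acts on RNA and DNA, rose by 0.61 ± 0.04 relative to gene reads and was at -0.05 with ERCC scaling.

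For KDM4B, 10 of the 43 rose and 21 fell (36.2% of all genes passed, 18.6% up and 17.6% down; 2 and 28 with ERCC scaling). Mbnl1 fell by 0.74 ± 0.05, Hnrnpl, which binds CA runs, by 0.47 ± 0.04 and Tia1, which binds U-rich runs, by 0.41 ± 0.04, and Top3b rose by 0.47 ± 0.04. For KDM6A, 9 rose and 8 fell (17% of all genes passed, 8.3% up and 8.65% down; 2 and 22 with ERCC scaling). Tia1, its relative Tial1 and the helicase gene Ddx17 fell by 0.50, 0.43 and 0.40, and Top1 rose by 0.45 (0.23 with ERCC scaling). For KDM6B, 6 rose and 11 fell (20.6% of all genes passed, 9.89% up and 10.7% down; 0 and 39 with ERCC scaling), and Mbnl2, Top3b, Matr3 and Aqr, an R-loop helicase gene, fell by 0.42, 0.27, 0.22 and 0.23.

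As shares, which do not depend on scaling, tracts made up 17.3% and 16.8% of the reads on repeat copies that met the same read minimum, outside the chromosome 17 stretch, with IDR-deleted KDM4A, against 14.7% and 14.2% with full-length KDM4A. With KDM6B they made up 18.8% and 18.6% in IDR-deleted libraries, against 17.6% and 17.5% in full-length ones, with KDM4B 14.4% and 14.3% against 14.03% and 13.6%, and with KDM6A the groups overlapped (14.1% and 13.6% against 14.3% and 13.8%). The mean difference over the 4 demethylases was 1.05 percentage points, higher in 3 of 4 (exact two-sided permutation test within demethylases over 1296 labelings, p = 0.0108, adjusted over 3 measures p = 0.0162; the smallest p possible is 0.00154). Of all repeat reads, that stretch and the copies under the minimum included, tracts made up 15.2% and 14.9% with IDR-deleted KDM4A, against 13.6% and 13.2% with full-length KDM4A, a difference of 1.67 percentage points where the first denominator gave 2.63. For KDM6B they made up 16.6% and 16.5%, against 15.8% and 15.8%, a difference of 0.73 points where the first gave 1.15, and the mean over the 4 demethylases was 0.66 points (exact permutation p = 0.0154, adjusted p = 0.0231). This denominator was added after seeing the data.

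The share of inside tract reads that lie on intron copies was 46.4% and 47.1% with IDR-deleted KDM4A, against 56.4% and 57.6% with full-length KDM4A, and 39.0% and 39.0% with IDR-deleted KDM6B, against 47.8% and 45.6% with full-length KDM6B. For KDM4B it was 57.9% and 59.4% against 60.6% and 61.5%, and for KDM6A 61.2% and 63.2% against 61.8% and 62.3%. The mean difference was -5.08 percentage points (exact permutation p = 0.00772, adjusted p = 0.0162), lower in 3 of 4. The share of tract reads outside genes was 3.14% and 3.30% with IDR-deleted KDM4A, against 5.08% and 5.21% with full-length KDM4A. Its mean difference of -0.63 percentage points passed narrowly (exact permutation p = 0.0401, adjusted p = 0.0401) and no longer without the 6 swinging copies (-0.58, adjusted p = 0.0602), nor without any 1 of 8 of the 16 libraries (adjusted p of 0.0525 to 0.0741): all 4 KDM4B libraries, both first KDM6B libraries, IDR-deleted KDM6A replicate 1 and full-length KDM6A replicate 2.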

How the data were processed

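Chromatin-associated RNA libraries were made with the SMARTer Stranded Total RNA-seq kit, per the labels' protocols. Per the file headers, the authors counted reads on genes and on single repeat copies with featureCounts 2.0.3 and deposited raw counts; the submitters' processing notes also list HISAT2, SAMtools, Picard, MACS2 and GRCm39. The header shows a mapping quality minimum of 30, no use of strand, and each read of a pair counted. An overlap of 1 base sufficed, so most bases of a counted read can lie beside the tract, and genes and their antisense partners cannot be told apart.

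Place was set by any overlap with a gene span. Counts were scaled to TMM effective library sizes of the genes without ERCC RNAs and tested with edgeR 4.0.16 (R 4.3.3; quasi-likelihood, 16 libraries, 8 group means, Benjamini-Hochberg adjustment, threshold 0.05) over 728423 copies, 113 sums, 252 finer sums or 31057 genes. Copies passed filterByExpr, and their trended dispersion was estimated on every 10th copy. Adjusted p-values of copies, sums and genes are from these fits. Intervals and floors cover counting error only.

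Alternatives were DESeq2 1.42.0, other scalings, filters, fits and places, the replicate block and leaving out each library; the sums by finer place, the place differences, the denominator of all repeat reads and the exclusion past the chromosome 17 stretch were chosen after seeing the data. Scripts were tested on simulated data.

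The named copies are the 10 with the most reads and, per contrast and place, the 2 largest rises and falls that passed, with at least 1 CPM in 1 group and no overlap between groups; named list genes have the 4 smallest p-values per contrast. The members and lists were chosen with earlier results of these data known.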

Additional observations from a re-analysis of the deposited data

Results flagged for a closer look

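The deletion effect differed between the 2 members of a demethylase family in 6 sums, by a test of the difference itself in edgeR. For KDM4A minus KDM4B (log2, adjusted p), Simple_repeat outside genes was at -0.45 (7.78e-05), Simple_repeat inside at 0.11 (0.00476) and Low_complexity inside at 0.13 (0.00258). With the chromosome 17 stretch kept, the first of these was 0.50, and with ERCC scaling the inside differences were -0.36 and -0.34. For KDM6A minus KDM6B, Simple_repeat outside genes was at 0.30 (0.00112), Simple_repeat inside at 0.21 (1.66e-05) and Low_complexity inside at 0.18 (0.000107).

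The 3 tract copies in the 15-kb stretch of chromosome 17, which no comparison above uses, held 4140593, 846564 and 28564 reads over the 16 libraries. Repeat copies of that stretch took 3.76% to 10.3% of repeat reads in a library. The third copy ranged from 0.342 to 414 CPM between libraries.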

How the results depend on the processing

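With the chromosome 17 stretch kept, Simple_repeat outside genes turned to 0.46 for KDM4A and was -0.045 for KDM4B and 0.24 for KDM6A, its KDM4A minus KDM4B difference turned to 0.50, the share of tract reads outside genes turned to 1.06 points, and Simple_repeat inside for KDM6A passed (0.056). Without the 6 copies past that stretch, Simple_repeat outside for KDM6A (0.11), Low_complexity outside for KDM4B (-0.37), KDM6A (0.15) and KDM6B (-0.17) and its differences (-0.44 and 0.32) passed, and the outside share (-0.58) did not. With ERCC scaling KDM6A turned to -0.10 and -0.16 (Simple_repeat outside, inside) and to -0.063 and -0.15 (Low_complexity), the KDM4A minus KDM4B differences inside to -0.36 and -0.34, and KDM4A inside (-0.67 and -0.66) and Low_complexity outside for KDM4B (-0.67) and KDM6B (-0.70) passed. Of 109221 tracts tested inside and 9963 outside, those called then numbered 35077 inside and 4293 outside for KDM4A, 4978 inside for KDM4B, 8 outside for KDM6A, and 16771 inside and 675 outside for KDM6B. On that scale the median of all genes was itself at -0.70 for KDM4A and -0.38 for KDM6B. The shares of all repeat copies that passed under this and the alternatives below are not given here, so these counts do not single out tracts. Most-read tracts turned to -0.033 (KDM4A), -0.082 (KDM4B) and -0.055 (KDM6B) for the first Hsp90ab1 tract, -0.069 for the second (KDM4B), -0.14 (KDM4B) and -0.25 (KDM6B) for Malat1, -0.033 (KDM6A) and -0.30 (KDM6B) for Hsp90aa1, -0.20 for Rplp1 and -0.089 for the first Gm47283 tract (KDM6A), and -0.34 for Ncl (KDM6B). The cause was not tested.

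With the 4 libraries of a contrast alone, Simple_repeat outside passed for KDM6A (0.11) and not for KDM6B (-0.19), Low_complexity for KDM6A passed outside (0.15) and not inside (0.062), and KDM6B calls were 1701 inside and 58 outside. With DESeq2, KDM6A passed for Simple_repeat outside (0.12) and inside (0.059), KDM4B for Low_complexity outside (-0.50), and KDM6A calls inside were 341. Median-ratio scaling passed Simple_repeat inside for KDM6A (0.059), and with no read minimum Low_complexity inside for KDM6A did not pass (0.059). With gene spans widened by 5 kb, Low_complexity outside did not pass for KDM4A (-0.62) or over the 8 groups (F = 3.42), its KDM4A minus KDM4B difference was 0.14, and calls outside were 1064, 347 and 62 for KDM4A, KDM4B and KDM6B, with fewer copies left outside.

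No label ties replicate numbers to a shared batch, and the numbers were not used as pairs. Deviations of same-numbered libraries correlated at 0.338, 0.376, 0.377 and 0.00799 for KDM4A, KDM4B, KDM6A and KDM6B, and between 0.00799 and 0.423 over all pairs of groups, above 0 in each. With the replicate block, Simple_repeat inside for KDM6A passed (0.053, adjusted p = 0.0457) and KDM6A calls inside were 239, against 127 without it.

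Leaving out 1 library gave 9162 to 10199 calls inside and 1199 to 1521 outside for KDM4A, 1138 to 1397 and 233 to 263 for KDM4B, 32 to 51 and 2 to 5 for KDM6A, and 1034 to 2018 and 45 to 66 for KDM6B. It gave -0.28 to -0.096 for Simple_repeat outside for KDM6B, -0.83 to -0.47 (KDM4A) and -0.55 to -0.027 (KDM6B) for Low_complexity outside, -0.023 to 0.011 (KDM4A) and 0.049 to 0.075 (KDM6A) for Low_complexity inside, and -0.70 to -0.56 points for the outside share. Most-read tracts that had not passed changed sign, over -0.011 to 0.099 for Malat1 (KDM4B) and -0.063 to 0.37 (KDM6B), -0.040 to 0.068 for Rplp1, -0.10 to 0.046 for Rpl5 and -0.25 to 0.16 for the second Gm47283 tract (KDM6A), and -0.035 to 0.21 for Hsp90aa1 and -0.021 to 0.11 for Ncl (KDM6B). Sums of tracts by repeat unit were not run. The 2 libraries a group limit the precision, and tracts with few reads were not tested.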
